A study of Mus musculus with 8 samples.

Results

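The genes described here are the transcription factor gene Myc and the factors that transcribe ribosomal RNA, process it and assemble it into ribosomal subunits. They were chosen by symbol from a list of 52 genes. The choice by symbol used no measured values, but the list was drawn up with earlier results of these data known. For each gene the brightest probe set on average was taken, among those that carry 1 gene symbol. Of the 52 listed genes 51 were measured this way, among 18193 measured genes in all. Mrto4 was the exception, because its only probe set carried 3 symbols, and it is not analysed here. The 51 genes were Myc, 7 RNA polymerase I subunits and factors, 4 nucleolar scaffold and chaperone genes, 4 proteins of box C/D snoRNPs, 4 proteins of box H/ACA snoRNPs, 15 small subunit factors and 16 large subunit factors. All 51 lay above the median level of all genes, which was 6.13 on the log2 scale, with means between 7.53 and 13.78.

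Each of 8 Affymetrix arrays measured total RNA from mouse leukemia driven by MLL-AF9, the oncogenic product of a translocation that joins the chromatin regulator MLL to AF9. A control hairpin against luciferase (shLUC) was present in 4 samples and a hairpin against Sirt1 (shSirt1) in the other 4. Sirt1 encodes a deacetylase that uses NAD. Within each arm, 2 samples were in DMSO, the solvent, and 2 were in 3 µM EPZ4777, which blocks DOT1L, the enzyme that methylates a lysine of histone H3. The drug was given for 6 days to shLUC cells and for 21 days to shSirt1 cells, so hairpin and time in drug cannot be told apart, and no time is given for DMSO. The medium of all samples held 15% serum and the cytokines IL-3 and IL-6, each at 10 ng/ml, and SCF at 20 ng/ml. Titles carry a code (A4 and D11 with shLUC, A1 and A5 with shSirt1) that joins a DMSO array to an EPZ4777 array, and the labels do not explain it. They also do not state that samples of a group were separate cultures, so p-values reflect no more than how these samples varied, and that variation may be technical.

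Array medians lay between 5.21 and 5.27 on the log2 scale. Of 10 listed myeloid and leukemic genes, Ptprc, Mpo, Elane and Hoxa9 were above 11.5 on every array. Itgam, Spi1, Cebpa and Kit lay between 7.79 and 10.65, and the progenitor marker Cd34 was at 2.43 to 3.39. Meis1 was at 6.91 to 7.93 on the DMSO arrays and at 3.62 to 5.26 on the EPZ4777 arrays. Sirt1 on the A1 array in DMSO was 56.6% of the shLUC mean, and on the A5 array 101.9%, so the second arm is called cells labelled shSirt1. The summed level of 9 stromal genes was highest on the A1 array in DMSO, at 9.38 against 7.86 to 8.52 on the other arrays, with Col3a1 at 6.92 against 2.84 to 3.13 and Col1a1 at 3.91 to 4.47 everywhere. Their part in the results was not tested. In bulk RNA, fewer cells of a type and less RNA per cell cannot be told apart.

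Ribosome assembly starts in the nucleolus, where RNA polymerase I makes 1 long precursor RNA from the ribosomal DNA repeats. Small nucleolar ribonucleoproteins (snoRNPs) of the box C/D class guide methylation and those of the box H/ACA class guide pseudouridylation of that precursor, and large particles of assembly factors cut and fold it into the small and the large subunit. MYC is a basic helix-loop-helix factor that binds the E-box CACGTG with its partner MAX, and many genes of this machinery are known MYC targets. Proteins of the MXD family also pair with MAX and repress E-box genes, and several of them are known to rise when myeloid cells mature.

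Promoter windows of 300 bases, 250 before and 50 after a listed transcription start, were matched in RefSeq (GRCm38.p6) for 44 of the 51 genes. The E-box CACGTG, which reads the same on both strands, lay in the windows of 8 of 44 genes (18.2%), against 10.3% of 14367 measured genes with a window. It lay in 5 of the 19 genes with a window that fell in shLUC cells, described below, and in 3 of the 25 others. Before the start alone the order was the other way, with 3 of 44 genes (6.82%) against 8.74% of measured genes, and these 3 were not called. The 5 sites are printed because these genes combine the motif with a called fall. Each is given as 30 bases in the direction of the gene with the E-box in capitals, and in each the motif lies after the listed start.
Grwd1, chr7:45830740-45830769, minus strand: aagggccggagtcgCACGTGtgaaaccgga
Tsr1, chr11:74898092-74898121, plus strand: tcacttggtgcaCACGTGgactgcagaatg
Wdr43, chr17:71616220-71616249, plus strand: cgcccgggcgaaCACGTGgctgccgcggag
Pes1, chr11:3963965-3963994, plus strand: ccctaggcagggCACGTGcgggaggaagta
Ltv1, chr10:13193092-13193121, minus strand: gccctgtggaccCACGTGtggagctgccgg

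The letters CCGGAAG, a core that ETS family factors are known to bind, were searched on both strands and cannot share bases with CACGTG. They lay in the windows of 20 of 44 genes (45.5%), against 15.0% of all measured genes with a window, in 10 of the 19 genes that fell (52.6%) and in 10 of the 25 others. Among 62 other ribosome biogenesis factors, 52 had a window, of which 23.1% held the E-box and 40.4% the ETS letters. These shares are descriptions, and a match is not by itself a binding site. Before the start alone they lay in 12 of 44 genes (27.3%) against 11.8%. To show these letters in place, 120 bases are printed for 3 called genes with CCGGAAG in capitals, those with the largest falls among genes that hold it before the start in a stretch outside the annotated gene. The stretches end at the base before the start, except that of Ddx10, which runs from base -240 to base -121. Wdr12 is printed beside them as the gene with the largest fall among those with neither motif.
Nolc1, chr19:46075727-46075846, plus strand: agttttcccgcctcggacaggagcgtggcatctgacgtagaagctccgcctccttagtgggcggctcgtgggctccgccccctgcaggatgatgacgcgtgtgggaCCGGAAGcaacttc
Ddx10, chr9:53248233-53248352, minus strand: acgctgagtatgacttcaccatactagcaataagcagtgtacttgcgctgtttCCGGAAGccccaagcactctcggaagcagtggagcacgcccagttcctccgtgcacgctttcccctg
Heatr1, chr13:12395255-12395374, plus strand: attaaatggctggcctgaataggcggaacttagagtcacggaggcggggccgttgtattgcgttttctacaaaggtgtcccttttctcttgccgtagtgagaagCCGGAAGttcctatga
Wdr12, chr1:60098501-60098620, minus strand: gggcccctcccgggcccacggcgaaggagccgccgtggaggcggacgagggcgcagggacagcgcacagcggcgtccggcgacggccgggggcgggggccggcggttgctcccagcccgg

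In the control cells, 6 days of DOT1L inhibition lowered 20 of the 51 genes and raised none. Those that fell were Polr1e of RNA polymerase I, the snoRNP chaperone Nolc1, the box C/D proteins Nop56, Nop58 and Rrp9, the box H/ACA protein Nhp2, 10 of 15 small subunit factors and 4 of 16 large subunit factors. The median difference over the 51 genes was -0.65 log2, which is 63.8% of the DMSO level, while the median over all genes was -0.0025. Differences ran from -1.01 for Grwd1 to 0.43 for Myc, 50 of 51 were negative, and Myc was the only gene above 0. Calls rest on limma with Benjamini-Hochberg adjustment over all 18193 genes at an adjusted p under 0.05. The same rule called 2.36% of all genes lower and 1.62% higher. Without adjustment, 46 of the 51 genes were lower at p under 0.05 and 1, Myc, was higher. Of all 18193 genes, 2219 were lower and 1726 higher at that level. In 49 genes both EPZ4777 arrays lay below both DMSO arrays, as they did in 28.2% of all genes.

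The calls depended on single arrays. Where the shLUC arrays of a gene did not overlap, its direction could not turn with 1 of them left out. A fit without 1 array has 3 residual degrees of freedom, against 4 in the main fit. The share of all genes called in such fits is not given. A loss of calls is therefore not shown to be particular to these genes. With any 1 shLUC array left out, the lone array of its group being assumed to vary like the other groups, 50 of 51 genes were lower. However, the number of calls fell without A4 in DMSO, without D11 in DMSO or without D11 in EPZ4777. It rose without A4 in EPZ4777. The median difference of the 51 genes was, in that order, -0.66, -0.64, -0.51 and -0.77. Leaving out either labelled shSirt1 array in DMSO, which only feeds the shared spread, left 3 calls, and leaving out either in EPZ4777 left 11. With the code as a fixed replicate block 19 of the 20 genes passed, against 3.61% of all genes lower. As a random block 41 of the 51 passed, against 7.59% of all genes lower.

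Myc itself was not lower in shLUC cells. Its log2 level in shLUC cells (array values are given in the order A4, D11 throughout) was 10.62 and 10.57 in DMSO and 11.25 and 10.81 in EPZ4777. With the shSirt1 label (in the order A1, A5) it was 10.66 and 10.83 in DMSO and 10.83 and 10.61 in EPZ4777. Both EPZ4777 arrays lay above both DMSO arrays in shLUC cells, and the arrays overlapped in cells labelled shSirt1. The difference did not pass the test, at 0.43 ± 0.17 (adjusted p = 0.186) in shLUC cells, with ± for the standard error from limma, and -0.026 ± 0.17 (adjusted p = 0.956) in cells labelled shSirt1, nor did the difference between them (-0.46, adjusted p = 0.774). In shLUC cells the difference was 0.22 without the A4 array in EPZ4777 and 0.65 without the D11 array in EPZ4777. Its sign in cells labelled shSirt1 turned to 0.055 and 0.082 without the A5 array in DMSO or in EPZ4777. Myc has 1 probe set and lies at chr15:61985341-61990361 (GRCm38.p6).

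**Figure D1:**
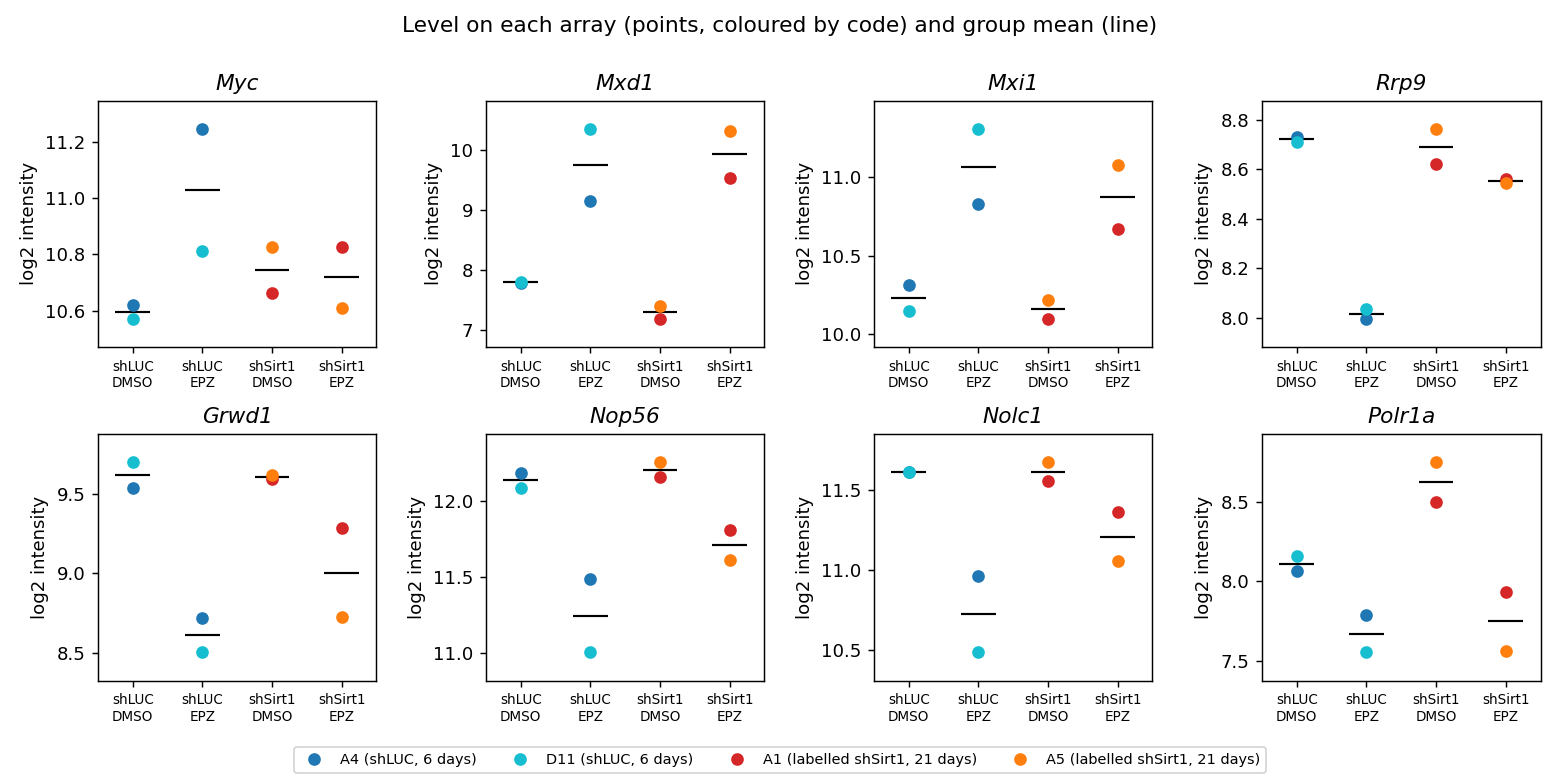
Log2 intensity of 8 genes on each of the 8 arrays, in 4 groups of 2 along the horizontal axis, with points coloured by code and a line at each group mean. Both EPZ4777 arrays lie above both DMSO arrays in shLUC cells for Myc, Mxd1 and Mxi1 and below them for Rrp9, Grwd1, Nop56, Nolc1 and Polr1a, and the vertical scales differ between genes.

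Among the partners and antagonists of MYC, Mxd1, a repressor that competes for MAX, rose. Its level in shLUC cells was 7.79 and 7.80 in DMSO and 9.15 and 10.36 in EPZ4777, and in cells labelled shSirt1 it was 7.18 and 7.40 in DMSO and 9.54 and 10.32 in EPZ4777. All 4 EPZ4777 arrays therefore lay above all 4 DMSO arrays. The difference was 1.96 ± 0.40 in shLUC cells (limma adjusted p = 0.0473), 2.64 ± 0.40 in cells labelled shSirt1 (adjusted p = 0.0636, not past the threshold) and 2.30 ± 0.28 over both arms (adjusted p = 0.012). The call in shLUC cells was lost with any 1 array left out other than A4 in EPZ4777 (adjusted p from 0.0505 to 0.25, with the smallest difference, 1.35, without D11 in EPZ4777). It was also lost with the mean of its probe sets (1.21, adjusted p = 0.0929), with a trended robust variance (adjusted p = 0.0528) and with only the arrays compared (adjusted p = 0.0597). Its other 2 probe sets, each by itself, gave 0.35 (adjusted p = 0.316) and 1.33 (adjusted p = 0.139). Mxi1, of the same family, differed by 0.84 ± 0.20 in shLUC cells (adjusted p = 0.0654) and rose by 0.77 ± 0.14 over both arms (adjusted p = 0.0236). Max itself did not pass the test, with -0.14 ± 0.12 in shLUC cells, and of 11 such genes 1 rose and 0 fell there. Mycn was 0.45 ± 0.29 higher in shLUC cells and 0.99 ± 0.29 higher in cells labelled shSirt1, and neither value passed the test (adjusted p = 0.442 and 0.2).

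The genes are now taken by their step in ribosome making. For RNA polymerase I and its factors, 1 of 7 genes fell in shLUC cells, with a median of -0.62. Polr1e, a subunit particular to this polymerase, had 8.66 and 8.68 in DMSO and 8.04 and 8.002 in EPZ4777 in shLUC cells and fell by 0.65 ± 0.11 (adjusted p = 0.0346). DMSO and EPZ4777 arrays did not overlap for any of the 7 genes. Tcof1, the nucleolar protein treacle that aids transcription of ribosomal DNA, read 8.92 and 9.01 in DMSO and 8.26 and 8.05 in EPZ4777 and missed the threshold in shLUC cells (-0.81 ± 0.17, adjusted p = 0.051). Ubtf, which coats the ribosomal DNA, read 9.87 and 9.83 in DMSO and 9.42 and 9.49 in EPZ4777 and had the smallest difference of the 7 over both arms (-0.29 ± 0.07). Rrn3, which brings the polymerase to its promoter, differed by -0.71 ± 0.16 (adjusted p = 0.0582), Polr1b, a core subunit, by -0.62, and Polr1c, which RNA polymerase III shares, by -0.34.

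Polr1a, the largest and catalytic subunit, had the larger fall in cells labelled shSirt1, a difference between the arms that did not pass the test (-0.44, adjusted p = 0.79). In shLUC cells it read 8.06 and 8.16 in DMSO and 7.79 and 7.56 in EPZ4777. In cells labelled shSirt1 it read 8.50 and 8.75 in DMSO and 7.93 and 7.57 in EPZ4777, so the DMSO arrays were higher there than in shLUC cells and the EPZ4777 arrays were close to the shLUC ones. The difference was -0.44 ± 0.16 (adjusted p = 0.179) in shLUC cells and -0.87 ± 0.16 (adjusted p = 0.091) in cells labelled shSirt1, the most negative of the 51 genes in that arm. With the code as a random replicate block the latter passed (adjusted p = 0.0388) and was the only such call among the 51 genes, against 1.31% of all genes lower. Over both arms Polr1a fell by 0.66 ± 0.12 (adjusted p = 0.0224). Of its 5 probe sets 4 had the same sign in each arm.

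Of the nucleolar scaffold and chaperone genes 1 of 4 fell in shLUC cells. Nolc1, a chaperone of snoRNPs, read 11.61 and 11.62 in DMSO and 10.96 and 10.49 in EPZ4777 in shLUC cells and fell by 0.89 ± 0.18 (adjusted p = 0.0473). Its values in cells labelled shSirt1 were 11.56 and 11.68 in DMSO and 11.36 and 11.06 in EPZ4777. In both arms the EPZ4777 arrays lay below the DMSO arrays, further in shLUC cells. Npm1, the abundant nucleolar chaperone nucleophosmin, had the smallest difference of the ribosome biogenesis factors in shLUC cells, at -0.15 ± 0.10 (adjusted p = 0.483). It read 13.82 and 13.78 in DMSO and 13.71 and 13.59 in EPZ4777 in shLUC cells and 13.92 and 13.85 in DMSO and 13.86 and 13.75 in EPZ4777 in cells labelled shSirt1. All its arrays lay within a narrow range, and only the shLUC arrays were free of overlap between agents. Ncl, the RNA-binding protein nucleolin, differed by -0.46 and Ddx21, an RNA helicase of the nucleolus, by -0.55, both short of the threshold (adjusted p = 0.0689 and 0.064).

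In the box C/D group 3 of 4 genes fell in shLUC cells, with a median of -0.70. Nop56, a core protein of these particles, read 12.18 and 12.08 in DMSO and 11.49 and 11.005 in EPZ4777 and fell by 0.89 ± 0.17 (adjusted p = 0.044). Nop58, its paralog in the same particles, read 12.28 and 12.27 in DMSO and 11.69 and 11.47 in EPZ4777 and fell by 0.70 ± 0.12 (adjusted p = 0.0362). Rrp9, a protein of the U3 particle that helps cut the precursor for the small subunit, read 8.73 and 8.71 in DMSO and 7.99 and 8.03 in EPZ4777 and fell by 0.71 ± 0.10. Its adjusted p of 0.0301 was the lowest of the 51 genes. Rrp9 in cells labelled shSirt1 read 8.62 and 8.76 in DMSO and 8.56 and 8.55 in EPZ4777, a difference of -0.14 ± 0.10 (adjusted p = 0.54), so the drug arrays stayed near the DMSO level there. Nop56 read 12.15 and 12.25 in DMSO and 11.81 and 11.61 in EPZ4777 in those cells and Nop58 12.31 and 12.37 in DMSO and 12.15 and 11.995 in EPZ4777, also without overlap. Fbl, the methyltransferase fibrillarin of the same particles, differed by -0.58 in shLUC cells and missed the threshold (adjusted p = 0.0687).

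In the box H/ACA group 1 of 4 genes fell in shLUC cells, with a median of -0.46. That was Nhp2, a core protein, at 12.99 and 12.97 in DMSO and 12.46 and 12.41 in EPZ4777 and a fall of 0.55 ± 0.11 (adjusted p = 0.044), and its arrays overlapped in cells labelled shSirt1. Gar1, another core protein, had the largest difference of the group and the widest spread, reading 10.89 and 10.79 in DMSO and 10.25 and 9.59 in EPZ4777. The D11 drug array was the lower, and the difference of -0.92 ± 0.22 did not pass (adjusted p = 0.0671). Dkc1, the pseudouridine synthase, read 12.05 and 11.99 in DMSO and 11.74 and 11.57 in EPZ4777 and differed by -0.36 ± 0.11 (adjusted p = 0.109). Nop10, the small core protein, differed by -0.25.

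The small subunit factors had the largest number of calls, 10 of 15 in shLUC cells, with a median of -0.68 and no overlap between DMSO and EPZ4777 arrays in any of the 15. Of the early factors that bind the growing precursor, Heatr1 read 9.95 and 9.98 in DMSO and 9.36 and 9.21 in EPZ4777 and fell by 0.68 ± 0.11 (adjusted p = 0.0353). Wdr43 read 10.84 and 10.91 in DMSO and 10.21 and 9.80 in EPZ4777 and fell by 0.87 ± 0.17, and Wdr75 read 10.23 and 10.09 in DMSO and 9.54 and 9.27 in EPZ4777 and fell by 0.75 ± 0.13. All these belong to one subcomplex of the small subunit processome, and each had its lowest array in D11 with EPZ4777. The labelled shSirt1 cells read 9.76 and 9.78 in DMSO and 9.80 and 9.61 in EPZ4777 (Heatr1), 10.82 and 10.87 in DMSO and 10.65 and 10.33 in EPZ4777 (Wdr43) and 10.16 and 10.28 in DMSO and 9.95 and 9.86 in EPZ4777 (Wdr75). Heatr1 overlapped there and the other two did not.

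Pwp2, of another processome subcomplex, read 8.42 and 8.46 in DMSO and 7.89 and 7.39 in EPZ4777 in shLUC cells and differed by -0.80 ± 0.22, short of the threshold (adjusted p = 0.0928), while Wdr3 of the same subcomplex fell by 0.65 ± 0.13. Noc4l, a nucleolar assembly factor that works with Nop14, read 9.70 and 9.78 in DMSO and 9.10 and 8.73 in EPZ4777 and fell by 0.83 ± 0.15 (adjusted p = 0.041). Ddx10, an RNA helicase, read 10.02 and 9.99 in DMSO and 9.46 and 9.17 in EPZ4777 and fell by 0.69 ± 0.14 (adjusted p = 0.0498), which is close to the threshold. Rrp12, needed for export of pre-ribosomes, read 8.34 and 8.34 in DMSO and 7.49 and 7.39 in EPZ4777 and fell by 0.90 ± 0.14 (adjusted p = 0.0326). Its level in cells labelled shSirt1 was 7.82 and 8.19 in DMSO and 7.73 and 7.79 in EPZ4777, so the DMSO arrays there were already below the shLUC ones.

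Of the factors that act late on the small subunit, Tsr1, a GTPase-like factor, read 11.16 and 11.02 in DMSO and 10.43 and 9.94 in EPZ4777 and fell by 0.90 ± 0.18 (adjusted p = 0.0451). With the shSirt1 label it read 11.12 and 11.23 in DMSO and 10.77 and 10.54 in EPZ4777, again without overlap. Ltv1, an export and assembly factor, read 10.71 and 10.81 in DMSO and 10.30 and 10.19 in EPZ4777 and fell by 0.51 ± 0.10 (adjusted p = 0.0473), the smallest called fall, and the call was lost with the code as a fixed replicate block (adjusted p = 0.0544). Bysl, which binds the same late particles, fell by 0.64 ± 0.12. Nob1, the endonuclease that makes the end of the small subunit RNA, differed by -0.61 ± 0.14 (adjusted p = 0.0614), and Imp3, Imp4 and Nop14, of the processome, by -0.40 to -0.66 without a call.

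Of the large subunit factors 4 of 16 fell in shLUC cells, with a median of -0.64. Grwd1, a WD-repeat chaperone of ribosomal and histone proteins, read 9.54 and 9.70 in DMSO and 8.72 and 8.50 in EPZ4777 and fell by 1.01 ± 0.19 (adjusted p = 0.0415), to 49.8% of its DMSO level. Under the shSirt1 label it read 9.59 and 9.62 in DMSO and 9.28 and 8.72 in EPZ4777, with the A5 drug array at the A4 level of shLUC cells and the A1 drug array above it. Noc3l, a nucleolar assembly factor, read 7.85 and 7.95 in DMSO and 7.24 and 6.94 in EPZ4777 and fell by 0.81 ± 0.15 (adjusted p = 0.0415). Its values in cells labelled shSirt1, 7.46 and 7.77 in DMSO and 7.56 and 7.46 in EPZ4777, overlapped.

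Pes1, Bop1 and Wdr12 form the PeBoW complex, which is required to process the large subunit RNA. Wdr12 read 10.91 and 10.82 in DMSO and 10.16 and 9.63 in EPZ4777 and fell by 0.97 ± 0.19 (adjusted p = 0.0457). Pes1 read 10.52 and 10.47 in DMSO and 9.94 and 9.53 in EPZ4777 and fell by 0.76 ± 0.14 (adjusted p = 0.0415). For Bop1 the readings were 8.98 and 8.98 in DMSO and 8.50 and 8.49 in EPZ4777, a difference of -0.48 ± 0.12 that did not pass (adjusted p = 0.0713). The DMSO and EPZ4777 arrays did not overlap for any of these 3 genes, and D11 in EPZ4777 was the lowest array for each. With the shSirt1 label Wdr12 read 10.83 and 10.92 in DMSO and 10.58 and 10.25 in EPZ4777, Pes1 10.32 and 10.38 in DMSO and 10.09 and 10.07 in EPZ4777 and Bop1 8.65 and 8.94 in DMSO and 8.73 and 8.71 in EPZ4777, of which only Bop1 overlapped.

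Nop16, a nucleolar factor, read 10.15 and 10.18 in DMSO and 9.61 and 8.99 in EPZ4777 in shLUC cells and differed by -0.86 ± 0.22 (adjusted p = 0.0713). Ppan, an assembly factor of the large subunit, read 9.51 and 9.59 in DMSO and 9.07 and 8.55 in EPZ4777 and differed by -0.74 ± 0.20 (adjusted p = 0.0858). Nop2, an RNA methyltransferase, read 9.25 and 9.33 in DMSO and 8.70 and 8.44 in EPZ4777 and differed by -0.72 ± 0.15 (adjusted p = 0.0505). All lay below DMSO on both drug arrays, and the D11 drug array was the lowest for each. The other large subunit factors were the nucleolar assembly factors Brix1, Nip7, Noc2l, Ebna1bp2, Rrs1 and Rrp1b, the GTPase Gnl3 (nucleostemin) and the RNA helicase Ddx18, with differences from -0.65 for Nip7 to -0.29 for Rrp1b and no call. Rrp1b was the one gene of the list whose shLUC arrays overlapped.

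**Figure D2:**
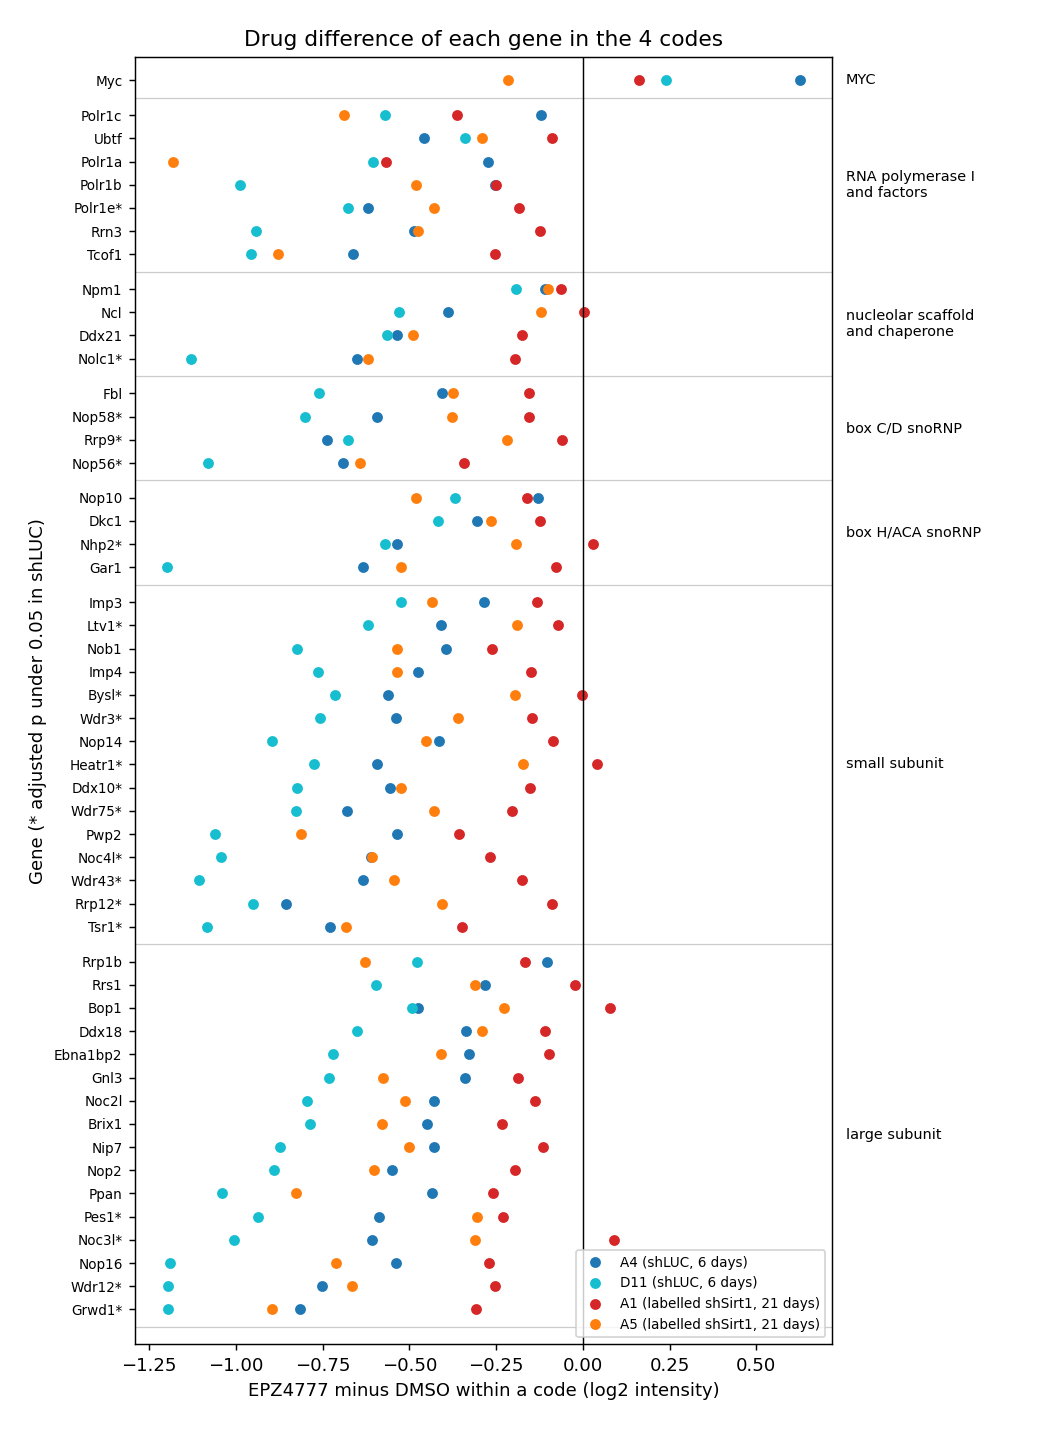
EPZ4777 minus DMSO within each code (log2 intensity, horizontal axis) for the 51 genes, grouped by role, with 1 point per code and an asterisk for genes past the threshold in shLUC cells. Of the 51 genes 45 lie below 0 in all 4 codes, D11 has the largest fall in 44, and A1 has the smallest in 46. The shares of all genes with that order of codes are not given.

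In cells labelled shSirt1, after 21 days in the drug, the same genes were lower but none passed the test. All 51 differences were negative, with a median of -0.31 (80.8% of DMSO) against 0.011 for all genes, and they ran from -0.87 for Polr1a to -0.026 for Myc. Limma called 0 of 51, with a smallest adjusted p of 0.091, while 0.181% of all genes were called lower and 0.214% higher. At an unadjusted p under 0.05, 18 of the 51 genes were lower, and 15.8% of all genes passed in either direction. In 42 genes both EPZ4777 arrays lay below both DMSO arrays, as in 23.0% of all genes. Grwd1 differed by -0.60 ± 0.19, Pwp2 by -0.59 ± 0.22, Tcof1 by -0.57 ± 0.17, Ppan by -0.54 ± 0.20 and Polr1c by -0.53 ± 0.16. At the other end, Ncl, Heatr1, Bop1, Npm1, Nhp2 and Bysl lay between -0.06 and -0.10. With the code as a fixed replicate block 0 genes passed, against 0.907% of all genes lower.

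The RNA polymerase I genes kept to this pattern, with all 7 free of overlap between agents in this arm too. Polr1e read 8.59 and 8.66 in DMSO and 8.40 and 8.23 in EPZ4777 there and Ubtf 9.86 and 9.93 in DMSO and 9.77 and 9.64 in EPZ4777. Tcof1 read 8.97 and 9.14 in DMSO and 8.72 and 8.27 in EPZ4777, with the A5 drug array clearly the lower. Among the snoRNP genes, Gar1 read 10.75 and 11.06 in DMSO and 10.67 and 10.53 in EPZ4777 and Dkc1 12.01 and 12.05 in DMSO and 11.89 and 11.78 in EPZ4777, so both drug arrays were below both DMSO arrays. Nhp2 read 12.78 and 12.97 in DMSO and 12.80 and 12.77 in EPZ4777 and overlapped.

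Of the small subunit factors, Pwp2 read 8.53 and 8.41 in DMSO and 8.17 and 7.60 in EPZ4777 and Noc4l 9.68 and 9.75 in DMSO and 9.41 and 9.14 in EPZ4777 in this arm. Ddx10 read 10.04 and 10.14 in DMSO and 9.88 and 9.62 in EPZ4777 and Ltv1 10.66 and 10.69 in DMSO and 10.59 and 10.50 in EPZ4777. None of these 4 overlapped between agents, and the A5 drug array was the lowest for each. Of the large subunit factors, Nop16 read 10.27 and 10.33 in DMSO and 10.004 and 9.62 in EPZ4777, Ppan 9.41 and 9.72 in DMSO and 9.15 and 8.89 in EPZ4777 and Nop2 9.21 and 9.27 in DMSO and 9.01 and 8.66 in EPZ4777, in the same order of arrays and without overlap.

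The codes differed within each arm. The median difference of the 51 genes was -0.49 in A4, -0.79 in D11, -0.15 in A1 and -0.48 in A5, and 50, 50, 45 and 51 genes were negative. A5 was thus near A4, a code of the other arm, and A1 had the smallest fall. The difference was more negative in A5 than in A1 for all 51 genes and in D11 than in A4 for 49. The shares of all genes in these orders are not given. Over all genes the median was 0.010 in A4, -0.023 in D11, 0.010 in A1 and 0.0078 in A5. The 76 mitochondrial ribosomal proteins also fell most in D11 (-0.46) and least in A1 (-0.12). In all 4 codes 45 of the 51 genes were lower, as were 19.6% of all genes. In A1 there were 6 genes above 0, Myc, Ncl, Nhp2, Heatr1, Bop1 and Noc3l. Without both arrays of A1 the median of the labelled shSirt1 arm was -0.48, and without both of A5 it was -0.15.

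By array, the median over the 51 genes of the level minus each gene's own mean was 0.24 and 0.22 in shLUC cells in DMSO and -0.27 and -0.56 in EPZ4777. It was 0.18 and 0.30 in cells labelled shSirt1 in DMSO and 0.036 and -0.16 in EPZ4777. All 4 EPZ4777 arrays lay below all 4 DMSO arrays, and the A1 drug array came closest to them.

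**Figure D3:**
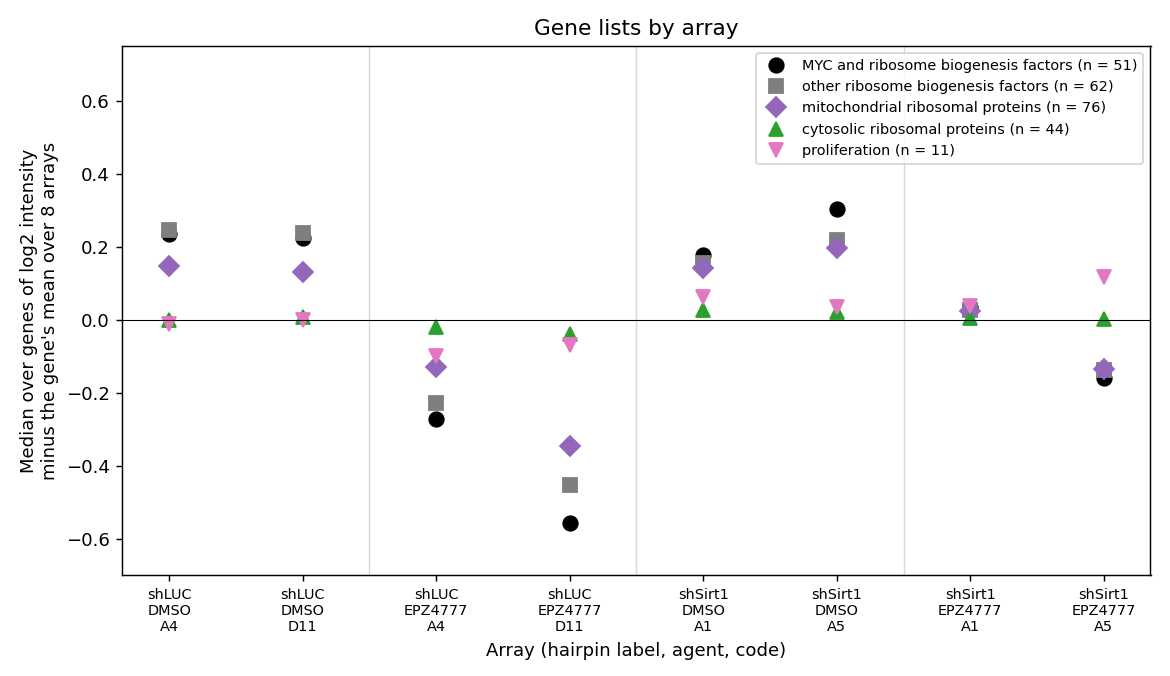
Median over the genes of a list of the log2 level minus the gene's mean over all arrays (vertical axis) for each of the 8 arrays, for the 51 genes described here and 4 other lists. The ribosome biogenesis lists and the mitochondrial ribosomal proteins are lower on all 4 EPZ4777 arrays. The median of the 44 cytosolic ribosomal proteins stays between -0.04 and 0.027.

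Whether the drug effect differed between the arms was tested as the difference of the 2 differences, which also holds the difference of 6 and 21 days. Limma called 0 of 51 genes (smallest adjusted p 0.587, Rrp9), as for all genes (0.0%). At an unadjusted p under 0.05, 11 genes had the smaller fall in cells labelled shSirt1 and 0 the larger, with 6.71% of all genes passing in either direction. The median difference was 0.34, and 46 of 51 genes had the smaller fall in that arm. It was 0.17 without both arrays of A1, 0.50 without both of A5, and 0.16 without the D11 array in EPZ4777. The largest values were 0.70 for Noc3l, 0.66 for Rrp12, 0.62 for Heatr1 and Gar1 and 0.57 for Rrp9, and negative values were those of Myc, Polr1a, Polr1c, Rrp1b and Nop10.

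**Figure D4:**
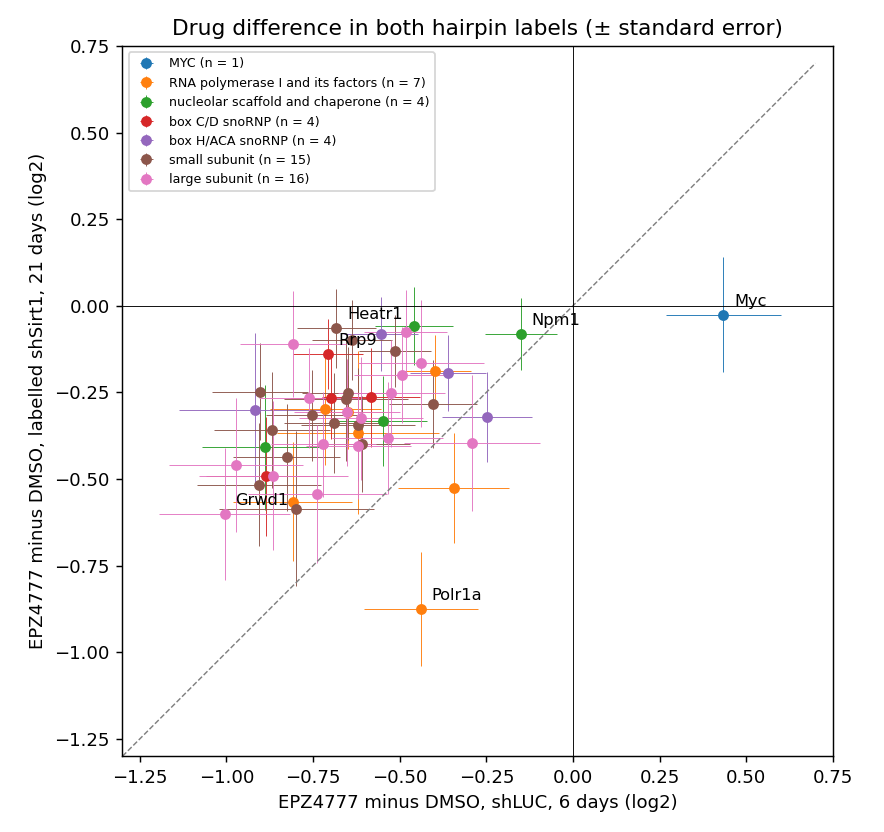
EPZ4777 minus DMSO in cells labelled shSirt1 (vertical axis, log2) against that in shLUC cells (horizontal axis, log2) for the 51 genes, coloured by role, with standard errors and a dashed line of equal differences. Of the 51 points 46 lie above the line, Polr1a lies farthest below zero on the vertical axis, and Myc is the only point right of 0.

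Between the hairpin labels in DMSO the 51 genes were close to level. The median difference, labelled shSirt1 minus shLUC, was 0.019, limma called 0 genes (0.0% of all genes), and 2 passed at an unadjusted p under 0.05 against 5.41% of all genes. These were Polr1a, higher by 0.51, and Rrp12, lower by 0.34. In EPZ4777 the median was 0.34 and 49 of 51 genes were higher in cells labelled shSirt1, all but Myc and Polr1c. Again 0 genes passed, against 0.308% of all genes, and the smallest adjusted p was 0.0938 (Rrp9, 0.54 ± 0.10). At an unadjusted p under 0.05, 26 of 51 were higher and 0 lower, against 13.3% of all genes in either direction, and in 38 both labelled shSirt1 arrays lay above both shLUC arrays, as in 21.0% of all genes. These comparisons share their arrays with the drug comparisons and are no separate evidence.

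Over both arms, with 4 EPZ4777 and 4 DMSO arrays, 35 of 51 genes fell and 0 rose, where limma called 6.0% of all genes lower and 4.88% higher. The median was -0.48, which is 71.8% of DMSO. By role, 5 of 7 RNA polymerase I genes fell, 2 of 4 scaffold and chaperone genes, 4 of 4 box C/D proteins, 1 of 4 box H/ACA proteins, 13 of 15 small subunit factors and 10 of 16 large subunit factors. Grwd1 fell by 0.80 ± 0.13 (adjusted p = 0.0202), Wdr12 by 0.72 ± 0.14, Tsr1 by 0.71 ± 0.13, Pwp2 by 0.69 ± 0.16, Nop56 by 0.69 ± 0.12, Tcof1 by 0.69 ± 0.12 and Nop16 by 0.68 ± 0.15. Polr1e had the lowest adjusted p, 0.0177, with a fall of 0.48 ± 0.07. In 41 genes all 4 EPZ4777 arrays lay below all 4 DMSO arrays, as in 9.94% of all genes. The genes without a call were Myc, Polr1b, Polr1c, Ncl, Npm1, Dkc1, Nop10, Gar1, Imp3, Nop14, Bop1, Rrs1, Rrp1b, Noc2l, Ebna1bp2 and Ddx18. This count depended on single arrays, and with 1 array left out it moved in both directions. The share of all genes called in those fits is not given, so the changes are not shown to be particular to these genes.

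Genes outside the list gave a scale for these values. Of 62 other ribosome biogenesis factors 26 fell and 0 rose in shLUC cells, with a median of -0.62, while the labelled shSirt1 arm had 0 calls and a median of -0.27. Those with the largest falls were Wdr18 (-1.17 ± 0.19), of a late large subunit complex, and Riok2 (-1.13 ± 0.15), an atypical kinase of the small subunit. Of 15 other known MYC targets 4 fell, with a median of -0.64, and among them Odc1, the first enzyme of polyamine synthesis, fell by 1.09 ± 0.16 (adjusted p = 0.0311). Of 11 RNA exosome genes 2 fell, and of 9 other RNA polymerase I subunits and promoter factors 1, with a median of -0.29. The 44 cytosolic ribosomal proteins, the products that these factors assemble, had a median of -0.036, with 2 lower. Of 76 mitochondrial ribosomal proteins 9 fell, with a median of -0.37.

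Some markers of other states moved with the drug, not all of them in both arms, and their part in these results was not tested. Of 15 listed neutrophil maturation genes 12 were measured, and their summed log2 level went from 14.72 and 15.10 in DMSO to 15.88 and 16.65 in EPZ4777 in shLUC cells, and from 13.49 and 14.82 to 15.90 and 16.68 in cells labelled shSirt1. Their median rise was 1.30 in A4, 2.89 in D11, 2.94 in A1 and 3.33 in A5. A1, with the smallest fall of the 51 genes, rose from the lowest DMSO level. As a median of levels minus each gene's mean, these maturation genes stood at -2.53 there. The other DMSO arrays read -1.12 (A4), -0.61 (D11) and -0.96 (A5). With EPZ4777 the values were 0.54 (A4), 2.14 (D11), 0.54 (A1) and 2.19 (A5). Within each arm the higher drug array had the lower median of the 51 genes. Between arms, A4 and A1 were level here while the 51 genes stood at -0.27 and 0.036. The summed level of 10 macrophage genes went from 10.31 and 10.47 to 11.43 and 12.09 in shLUC cells and from 8.80 and 9.66 to 8.96 and 9.38 in cells labelled shSirt1. Of 11 measured proliferation genes 0 passed limma's test in either arm (1 at an unadjusted p under 0.05 in each arm), with medians of -0.12 and 0.092. None of these marker genes is on the list of 51.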

How the data were processed

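The authors deposited RMA values as linear intensity, per the submitters' processing notes and the scale of the values (at most 24500), with no version given. RMA shrinks low signals, so dim genes understate a change. How arrays were grouped for RMA is not stated. Each value was taken as log2 without pseudocount, filter or renormalization. Of 45101 probe sets, 34945 had a single symbol in the platform annotation, 932 had several, and controls (64) were dropped. The brightest probe set on average stood for a gene, and 35 of the 51 genes had several.

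Group means were fitted for all genes over the 8 arrays with limma 3.58.1 (R 4.3.3, data.table version 1.17.8), leaving 4 residual degrees of freedom, and p-values are two-sided. With 2 arrays against 2, exact permutation has a floor of p = 0.333, and the number of arrays limits the precision. The script was tested on simulated data for the shLUC comparison (20 draws, 18193 genes). Changes of 1 log2 were recovered in 60.4% of cases, those of 0.5 in 7.7% and those of 2 in 91.6%, and 3.89% of calls were false. Each draw changed only a small share of the genes, in the shLUC EPZ4777 group, with normal noise independent between arrays. The rates hold for that setting and may differ for the real arrays. The correlation of array deviations across agents was 0.293 for shLUC codes and 0.378 for labelled shSirt1 codes. For unrelated codes, taken without sign, it was 0.0402 (DMSO) and 0.401 (EPZ4777). This check therefore does not separate the codes, and the pairing rests on the codes in the titles.

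The genes and lists were chosen with earlier results of these data known. Values on every array are given for Myc, for the 15 genes with the largest difference among those called in a comparison, and for the largest and smallest mean difference of each role. Of wider lists, the 4 called genes with the largest difference are named. Mxi1, Mycn, Max and the printed sequences were chosen after values were seen, the sequences because no called gene held an E-box before its start. The search for CCGGAAG was not planned beforehand. Sequences come from RefSeq. Alternatives were other choices of probe set, removal of dim genes, quantile normalization, median centring, a trended robust variance, a fit on the compared arrays alone, a fixed or random block by code, other thresholds, and arrays left out. Leaving out both arrays of A1 or of A5 was chosen after seeing the data. Plots used matplotlib 3.10.9.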

Additional observations from a re-analysis of the deposited data

How the results depend on the processing

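In shLUC cells 50 of the 51 genes were lower under each alternative run, and the median stayed between -0.77 and -0.51. Some alternatives change only the spread, so their median of -0.65 could not move. These are the block fits, the fit on the compared arrays and the fits without labelled shSirt1 arrays. For this comparison, leaving out both arrays of A1 or of A5 amounts to the fit on the compared arrays alone. The count of called genes moved more. The share of all genes called is not given beside the counts that follow, so their changes are not shown to be particular to these genes. From 20 of 51, it became 38 at an adjusted p under 0.1 and 0 at 0.01, 33 with dim genes removed, 13 after quantile normalization, 35 after median centring, 4 with only the arrays compared and 41 with the code as a random replicate block. It was 4 without both arrays of A1 and 4 without both of A5, and from 0 to 28 with 1 array left out. In cells labelled shSirt1 the count of 0 became 1 at an adjusted p under 0.1 and 1 with the random block, and the median was -0.48 without A1 and -0.15 without A5. The median difference between the arms was 0.17 without A1, 0.50 without A5, and 0.16 to 0.50 with 1 array left out. The count for the labels in EPZ4777 became 1 at an adjusted p under 0.1. Over both arms the count of 35 was 0 at an adjusted p under 0.01, 8 without A1, 0 without A5, and 0 to 42 with 1 array left out. Signs turned for Myc in cells labelled shSirt1 (-0.13 to 0.082 with 1 array left out, 0.16 without A5) and, over both arms, in 1 dimmer probe set of Polr1a (0.048) and 1 of Wdr12 (0.067), among the genes given array by array. Of the other genes, Ebna1bp2 had 1 of 3 probe sets with the other sign in each arm. The cause of these changes was not tested. The fixed replicate block changed 1 call in shLUC cells, that of Ltv1 (adjusted p = 0.0544), left 0 called in cells labelled shSirt1 and gave 36 over both arms. It could not be fitted for the label comparisons, because each code belongs to 1 hairpin.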
